A study of Mus musculus with 4 samples.

Results

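The genes described here bind, make, degrade or answer to retinoic acid: Crabp1, Crabp2, Stra6, Aldh1a1, Aldh1a2, Aldh1a3, Cyp26a1, Cyp26b1 and Rarb. They are 9 of 31829 gene names on the array, measured by 10 of 39429 probes, and were taken by name. They were singled out because some of them lay far apart between these arrays, so their ratios are a description and were not tested. Total RNA came from mouse embryonic fibroblasts (MEFs), mixed connective tissue cells grown out of embryos, of C57BL/6J mice in logarithmic growth. Of the 4 arrays, DKO came from CycG1-/-CycG2-/- embryos and its WT from CycG1+/+CycG2+/+ embryos, while G2KO came from CycG2-/- embryos and its WT from CycG2+/+ embryos. CycG1 and CycG2 are the proteins of Ccng1 and Ccng2, cyclins linked to the DNA damage response, and the study asked whether their loss alters the transcripts of MEFs. In the targeted Ccng1 allele a neomycin cassette takes the place of all coding exons, and both knockouts are carried in the germ line. The Ccng2 allele and the number of embryos behind each preparation are not given in the sources used here. The study puts higher Xist, a transcript of the X chromosome, in its G2KO MEFs down to their female origin. Embryo sex may therefore differ within the G2KO comparison.

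Retinoic acid is made from vitamin A in successive oxidations. Retinol circulates bound to a carrier protein and is taken up through the membrane protein STRA6, alcohol and short-chain dehydrogenases turn it into retinal, and retinaldehyde dehydrogenases of the ALDH1A family turn retinal into retinoic acid. Inside the cell CRABP1 and CRABP2 carry retinoic acid, the latter to its nuclear receptors, and cytochromes of the CYP26 family degrade it. The receptors bind DNA as RAR-RXR pairs at repeats of a short half-site, and Rarb and Cyp26a1 are classical genes that retinoic acid switches on. In embryos the pathway patterns the hindbrain, face, limb and coelomic organs.

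The sequences behind the pathway are shown for the pair of genes whose promoter carried a receptor motif and for the coding probes of the carrier that lay farthest apart and of a degrading enzyme. Promoters were taken from RefSeq (GRCm38.p6), which listed 7 of the 9 genes, all but Crabp2 and Aldh1a3. The motif searched was a direct repeat of 2 half-sites with any 5 bases between them (NNNNN), on both strands. A half-site was AGGTCA or its variant GGGTCA, and also AGTTCA or its variant GGTTCA. In the 100 bases before each start that follow, the capitals mark the motif.
Rarb, chr14:16575477-16575576, minus strand: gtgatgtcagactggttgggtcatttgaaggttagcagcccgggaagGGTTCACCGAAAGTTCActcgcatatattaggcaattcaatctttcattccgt
Cyp26a1, chr19:37697708-37697807, plus strand: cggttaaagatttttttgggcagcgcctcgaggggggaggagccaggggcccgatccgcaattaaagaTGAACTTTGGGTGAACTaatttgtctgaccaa
The Rarb motif lay 53 to 37 bases before the start, in the gene's own direction. The Cyp26a1 motif lay 32 to 16 bases before the start and read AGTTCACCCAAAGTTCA on the opposite strand. Of 32851 promoters of 300 bases, 32 (0.0974%) held this repeat. Rarb and Cyp26a1 are classical genes switched on by retinoic acid, so finding it in them is a description and not a test. The same half-sites with 1 or 2 bases between them were found in 0.222% and 0.268% of promoters, and in none of the 11 promoters listed for these genes. The probes are printed in lower case with no part marked.
Crabp1 probe, chr9:54616192-54616251 (mm9), plus strand: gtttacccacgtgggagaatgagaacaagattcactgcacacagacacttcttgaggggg
Cyp26a1 probe, chr19:37775566-37775625 (mm9), plus strand: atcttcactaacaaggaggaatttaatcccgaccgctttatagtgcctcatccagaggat

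Levels are given as the signal of a probe over the 75th percentile of its array, and set side by side only for the same probe. Where a signal was not well above background on 1 array of a pair, the ratio is called a limit and is written "at least". It is a limit only under the software's background correction and leaves out the error of the dim signal. With normexp, another background correction, the ratios of Crabp1, Cyp26b1, Aldh1a3 and Stra6 in DKO were smaller than their limits, as given below. With 1 array in each group, the ratios have no replicate check. The software's error for a spot was between 10.0% and 44.5% of these levels, and it leaves out differences between cultures. The only guide to those is the pair of WT arrays, whose log2 ratios had an SD of 1.022 over 19466 genes. Between the array labelled G2KO and the WT of the DKO comparison that SD was 0.538. The targeted genes were read first. Ccng1 was not well above background on DKO and was at least 228-fold lower there than on its WT, but Ccng2 lay at 0.0910 on the array labelled G2KO and 0.104 on its WT (log2 -0.19), and at 0.0619 on DKO and 0.0806 on its WT (log2 -0.38). Whether the Ccng2 probe lies in the deleted part is not given. It did not separate the array labelled G2KO from its WT, so every direction in that comparison rests on the sample labels alone. As labelled, the direction is opposite to the one the study lists for this comparison at genes such as Foxa2, Sox2 and Pdgfra. Whether the labels of these arrays are exchanged was not settled. With the labels exchanged, every log2 ratio of the array labelled G2KO against its WT keeps its size and turns its sign, and the comparison of the WT arrays becomes that of the WT of the DKO comparison with the array labelled G2KO. The comparisons share arrays with the comparison of the WT arrays, and their values below are set side by side only.

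DKO differed from its WT at Crabp1, Cyp26b1, Aldh1a3 and Crabp2, which were lower, and at Aldh1a1 and Stra6, which were higher. These 6 of 9 genes lay at least 4-fold apart, where 8.07% of the 22881 genes compared did (4.04% higher and 4.03% lower). In the comparison labelled G2KO, Crabp1 and Crabp2 were higher than on the WT and Aldh1a1 and Cyp26b1 lower, 4 of 9 genes beside 5.73% of 22790 genes (3.71% higher and 2.02% lower). The arrays labelled WT lay at least 4-fold apart at the same 4 genes, beside 7.39% of 22137 genes (4.63% higher and 2.76% lower), with 2 higher and 2 lower, or 1 higher and 2 lower when scaled to the array median. With the labels exchanged, 1 of 8 genes, Cyp26b1, lay at least 4-fold apart between the WT arrays. Against the other WT array, which was set beside them after the data were seen, 3 of the 9 genes lay at least 4-fold apart in DKO (9.62% of 23877 genes) and 1 of 8 on the array labelled G2KO (2.3% of 21409 genes). With normexp background correction in place of the software's, 5 of 8 genes (1 higher and 4 lower) lay at least 4-fold apart in DKO, without Stra6. Because the genes were chosen with such ratios in view, nothing is read from these shares. The median log2 ratio of the 9 genes was -0.59 for DKO, 0.04 for the array labelled G2KO and 0.34 between the WT arrays, beside 0.03, -0.17 and -0.08 over all genes. Nearest to the 4-fold line, Crabp2 was 4.39-fold lower on DKO and, on the array labelled G2KO, Stra6 was at least 3.65-fold lower. With dim signals not raised to a floor, Stra6 was 4.78-fold lower on the array labelled G2KO. Then 5 of 9 genes (2 higher and 3 lower) lay at least 4-fold apart in that comparison, beside 7.77% of 22811 genes. Nearest to the background line, Aldh1a2 was well above background on DKO at 0.0117 and Cyp26a1 was not at 0.0111.

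**Figure D1:**
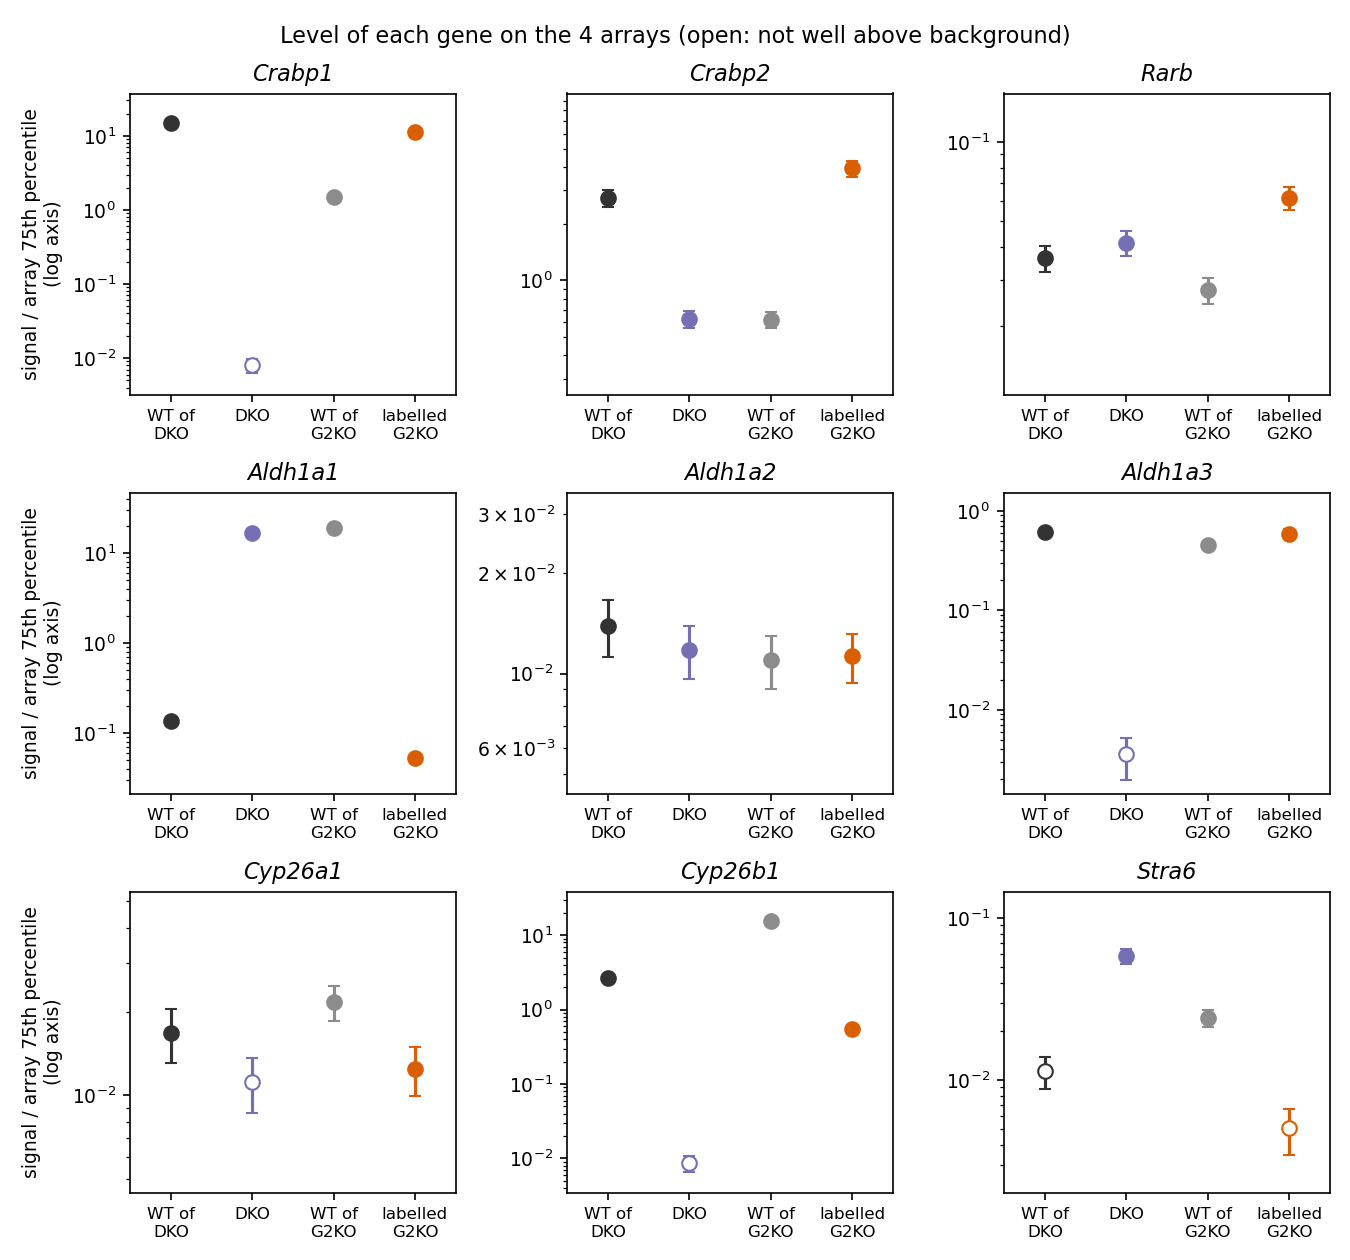
Level of each gene on the 4 arrays as signal over the array's 75th percentile, on a log axis of its own per gene; bars are the scanner software's error and open circles were not well above background. Crabp1, Aldh1a3 and Cyp26b1 were open and lowest on DKO, whereas Aldh1a1 was high on DKO (16.9) and on the WT of the G2KO comparison (18.9) and low on the other arrays.

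Among the carriers, Crabp1 showed the widest range. Its probe (chromosome 9, mm9 54616192 to 54616251) read 14.9 on the WT of the DKO comparison, 11.4 on the array labelled G2KO, 1.50 on the WT of the G2KO comparison and 0.0080 on DKO, where it was not well above background. DKO was thus apart from all 3 other arrays, at least 1865-fold below its own WT, at least 1430-fold below the array labelled G2KO and at least 188-fold below the other WT. With normexp its log2 ratio against its WT was -8.14 in place of -10.86. Counting Crabp1 itself, 2 of 22881 genes had a ratio as low in DKO against its WT. The study itself lists Crabp1 among the genes lower in its DKO MEFs. The array labelled G2KO was 7.61-fold above its WT, but the WT arrays differed by 9.93-fold from each other, and its log2 ratio against the WT of the DKO comparison was -0.38.

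Crabp2, which delivers retinoic acid to the receptor, was measured on all 4 arrays (chromosome 3, mm9 87757207 to 87757266). It read 2.73 on the WT of the DKO comparison and 3.92 on the array labelled G2KO, against 0.623 on DKO and 0.618 on the WT of the G2KO comparison. The arrays fell into a higher and a lower pair, and as labelled each pair held a knockout and a WT array. With the labels of the G2KO comparison exchanged, the higher pair would hold both WT arrays and the lower pair both knockouts. DKO was 4.39-fold below its WT (log2 -2.13), the array labelled G2KO 6.35-fold above its WT (log2 2.67), and the WT arrays differed by 4.42-fold. DKO and the WT of the G2KO comparison differed by 0.011 on the log2 scale. Stra6, the retinol transporter (chromosome 9, mm9 58001701 to 58001760), was dim. It read 0.0583 on DKO and 0.0241 on the WT of the G2KO comparison, whereas on the array labelled G2KO (0.0050) and the WT of the DKO comparison (0.0113) it was not well above background. DKO was at least 5.14-fold above its WT and at least 8.84-fold above the array labelled G2KO, but 2.42-fold above the other WT. With normexp its log2 ratio in DKO was 1.18 in place of 2.36, under 4-fold.

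Among the enzymes that make retinoic acid, Aldh1a1 and Aldh1a3 went opposite ways in DKO. Aldh1a1 (chromosome 19, mm9 20717764 to 20717823) read 18.9 on the WT of the G2KO comparison and 16.9 on DKO, against 0.135 on the WT of the DKO comparison and 0.0531 on the array labelled G2KO. Its pairs of arrays were those of Crabp2 with high and low exchanged. DKO was 125-fold above its WT, and the array labelled G2KO was 356-fold below its WT, but the WT arrays were 140-fold apart. DKO differed from the WT of the G2KO comparison by -0.16 on the log2 scale, within the software's error of 0.20 for that ratio.

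Aldh1a3 (chromosome 7, mm9 73535785 to 73535844) read 0.612 on the WT of the DKO comparison, 0.592 on the array labelled G2KO and 0.455 on the WT of the G2KO comparison. On DKO it read 0.0036 and was not well above background. DKO was thus at least 83.8-fold below its WT, at least 62.3-fold below the other WT and at least 81.0-fold below the array labelled G2KO, and the 3 other arrays lay within 0.43 of each other on the log2 scale. With normexp its log2 ratio against its WT was -3.78 in place of -6.39. Aldh1a2, the main retinoic acid source of the early embryo (chromosome 9, mm9 71143931 to 71143990), was close to background throughout, at 0.0139 on the WT of the DKO comparison, 0.0117 on DKO, 0.0113 on the array labelled G2KO and 0.0109 on its WT. Its log2 ratios of -0.24 in DKO and 0.04 on the array labelled G2KO were within the software's errors of 0.38 and 0.36.

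Among the enzymes that degrade retinoic acid, Cyp26b1 stood apart on DKO. Its probe (chromosome 6, mm9 84521952 to 84522011) read 15.5 on the WT of the G2KO comparison, 2.63 on the WT of the DKO comparison and 0.555 on the array labelled G2KO, and 0.0087 on DKO, where it was not well above background. DKO was at least 303-fold below its WT, at least 1784-fold below the other WT and at least 64.1-fold below the array labelled G2KO. With normexp its log2 ratio against its WT was -5.52 in place of -8.24. The array labelled G2KO was the next lowest, 27.8-fold below its WT and 4.73-fold below the WT of the DKO comparison, while the WT arrays were 5.88-fold apart. Cyp26a1 was dim everywhere, at 0.0167 on the WT of the DKO comparison, 0.0217 on the WT of the G2KO comparison, 0.0124 on the array labelled G2KO and 0.0111 on DKO, the last not well above background. Its signal on DKO was 1.50-fold below that on its WT (log2 -0.59), beside a software error of 0.45 for that ratio. No minimum difference can be read from these dim signals.

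Rarb, a receptor gene that retinoic acid switches on, had 2 probes. The brighter (chromosome 14, mm9 17263367 to 17263426) read 0.0414 on DKO, 0.0362 on its WT, 0.0614 on the array labelled G2KO and 0.0273 on the WT of that comparison. DKO differed from its WT by 0.19 on the log2 scale, and the array labelled G2KO was 2.25-fold above its WT (log2 1.17). The dimmer probe (chromosome 14, mm9 17264648 to 17264707) read between 0.0147 and 0.0174, nearer to background. It gave log2 ratios of -0.07 and 0.05, beside software errors of 0.33 and 0.28. The probes thus did not agree on the difference in the comparison labelled G2KO, and the dimmer one is the weaker guide. Of the genes whose promoter held the receptor motif, Rarb was under 4-fold in the knockout comparisons. Cyp26a1 was at -0.80 on the array labelled G2KO, and its value of -0.59 in DKO, where it was dim, bounds the difference on neither side. Of 8 other genes on the array with this motif in their promoter, 7 had a ratio in DKO, with a median log2 ratio of -0.22. Only Ppbp, a platelet chemokine chosen for mention after its values were seen, passed 4-fold in either comparison, with a log2 ratio of -6.08 in DKO and at least 8.18 on the array labelled G2KO.

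**Figure D2:**
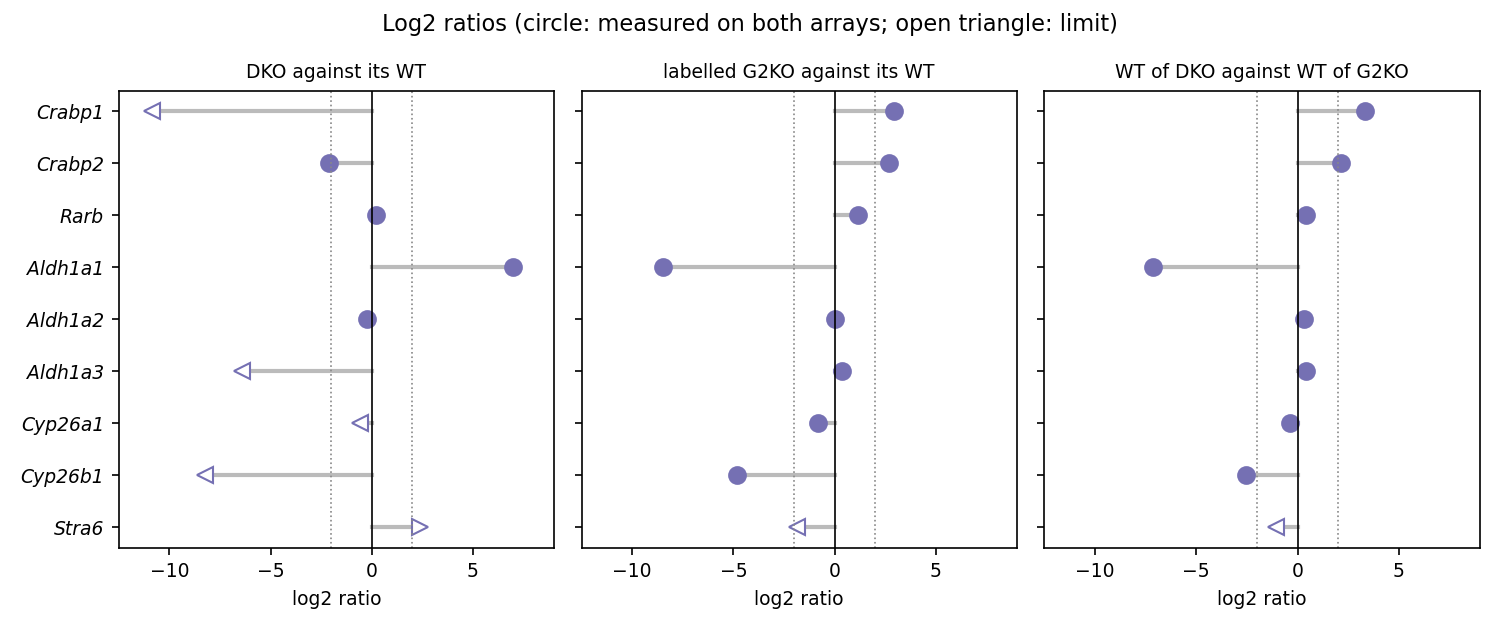
Log2 ratio of each gene in DKO against its WT, in the array labelled G2KO against its WT, and between the WT arrays; dotted lines mark 4-fold, and open triangles are limits. Crabp1, Aldh1a3 and Cyp26b1 have limits far below zero in DKO, and the panels of the array labelled G2KO and of the WT arrays place Crabp1, Crabp2, Aldh1a1 and Cyp26b1 on the same sides.

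**Figure D3:**
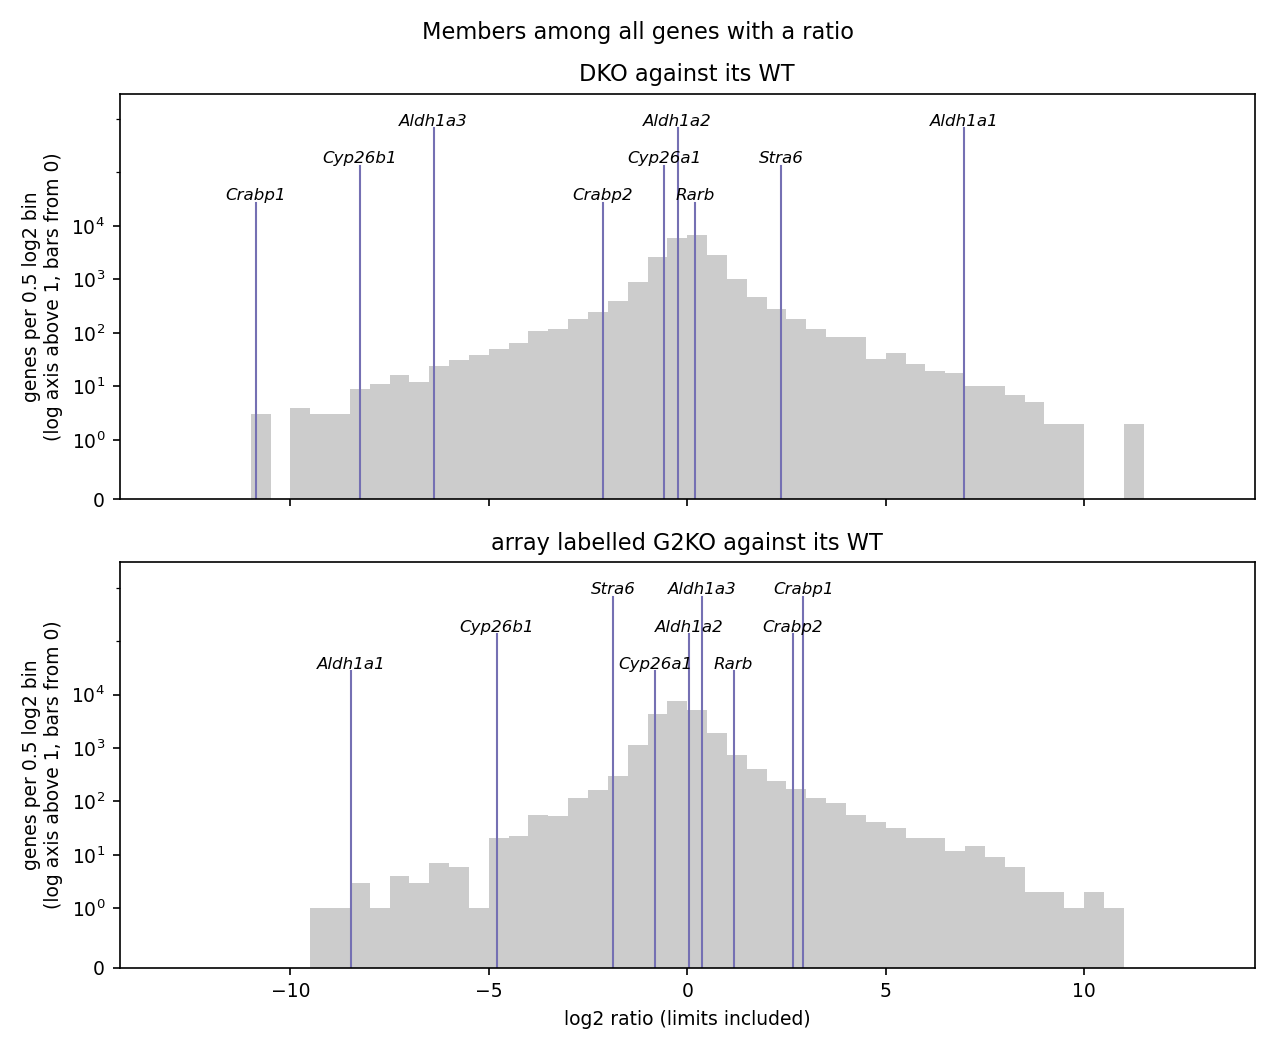
Number of genes per 0.5 log2 bin (log axis above 1) in each knockout comparison, limits included, with the 9 genes marked. In DKO, Crabp1 (-10.86) and Cyp26b1 (-8.24) lie in the lower tail and Aldh1a1 (6.97) in the upper tail, whereas Rarb, Aldh1a2 and Cyp26a1 lie in the body of the distribution.

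The rest of the pathway was read from 69 further genes on the array, grouped by role. In DKO against its WT 59 of them had a ratio, and 9 (6 higher, 3 lower) lay at least 4-fold apart, with a median log2 ratio of -0.11; without scaling between arrays the split was 5 higher and 5 lower. For the array labelled G2KO, 56 had a ratio, and 5 (3 higher, 2 lower) lay at least 4-fold apart, with a median of -0.29; without scaling the split was 3 higher and 1 lower. Between the WT arrays it was 8 of 57 (6 higher, 2 lower). Over all genes the shares at least 4-fold apart were 8.07%, 5.73% and 7.39% in that order, and nothing is read from the counts by role that follow.

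Of the genes for retinol transport and storage, none of 6 with a ratio had a value or limit past 4-fold in DKO. Rbp4, the retinol carrier of the blood, was not well above background on DKO, and its log2 limit of -1.99 sets no bound on how far below its WT it lay. Among the conversion enzymes Dhrs3, which reduces retinal back to retinol, read 0.0349 on the WT of the G2KO comparison against 1.72 to 4.69 on the other arrays. The array labelled G2KO was therefore above its WT by 5.94 on the log2 scale, and the WT arrays differed by 7.07. In DKO, Adh7 and Adh1, alcohol dehydrogenases that act on retinol, were not well above background and had log2 limits of -5.92 and -2.35 against the WT. Cyp1b1, a cytochrome that can oxidise retinol, was 2.07 higher there, at 49.1 against 11.7.

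None of 7 receptors and nuclear carriers and none of 12 cofactors passed 4-fold in DKO, on the array labelled G2KO or between the WT arrays. In DKO the receptors and carriers lay between -1.84 for Rxra, the common partner of the RARs, and -0.02 for Rxrb. Fabp5, which carries retinoic acid to another receptor, was at -1.72. The cofactors lay between -0.82 for Nrip1 and 1.30 for Kat2b.

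Of 17 response genes with a ratio in DKO, 5 were at least 4-fold higher and 1 lower, beside 4.04% and 4.03% of all genes. Hoxb4 and Hoxb5, homeobox genes of the trunk, read 3.06 and 1.16 on DKO and were not well above background on any other array, which gives log2 limits of 8.22 and 6.82. The study itself lists Hoxb4 among the genes higher in its DKO MEFs. Hoxd4 had a limit of 2.43 and Hoxa4 a log2 ratio of 2.70. Rarres2, which encodes the chemoattractant chemerin, was 3.05 higher in DKO and, on the array labelled G2KO, was at -2.07. Nr2f1, an orphan nuclear receptor, was at -2.58 in DKO. On the array labelled G2KO, Rarres1 had a log2 limit of 2.06 and the receptor tyrosine kinase gene Ret a limit of -2.90.

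**Figure D4:**
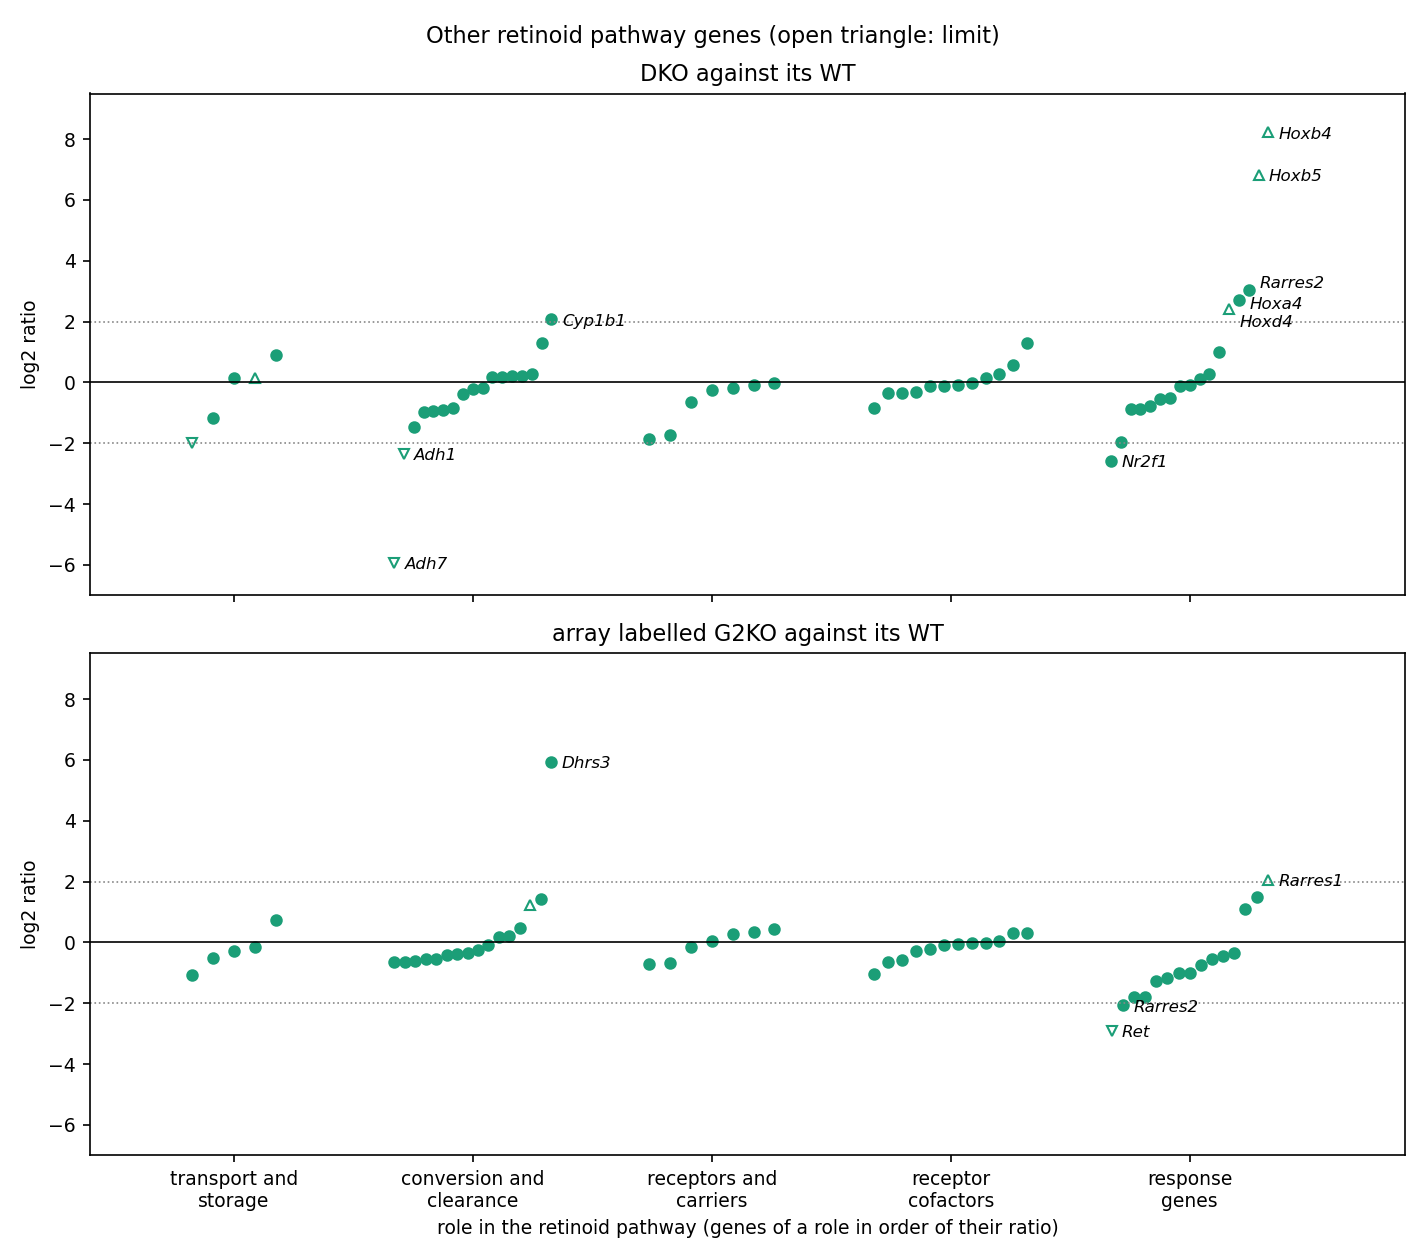
Log2 ratios of the other retinoid pathway genes by role in the knockout comparisons; open triangles are limits, dotted lines mark 4-fold, and the genes drawn past 4-fold are named. Receptors and cofactors stay between the dotted lines, and Hoxb4 and Hoxb5 have the highest limits in DKO.

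Markers of some other cell types also differed between these arrays. The lists were chosen with earlier results of these data known, and Wt1, Upk1b, Alx1 and Sox2 are among the genes the study lists as changed. Over all genes, 4.04% were at least 4-fold higher and 4.03% lower in DKO, and 2.02% lower on the array labelled G2KO. Nothing is read from the counts that follow. All 12 mesothelial markers were well above background on DKO and at least 4-fold above its WT, with a summed level of 150.2 against 0.679 to 1.59 on the other arrays, where Wt1, Upk3b, Upk1b, Lrrn4, Gpm6a and Pkhd1l1 were not well above background. Of 11 craniofacial and neural crest markers, 6 were at least 4-fold lower on DKO than on its WT, with a summed level of 0.782 against 4.24 to 5.81 elsewhere, and Alx1, Tfap2a, Tfap2b and Dlx5 were not well above background on DKO. Of 10 neural progenitor markers, the array labelled G2KO was at least 4-fold below its WT at 5, with summed levels of 48.4 on that WT and 1.85 to 5.70 on the other arrays; Sox2 was well above background on that WT alone. This direction too turns with the labels. Of 14 fibroblast markers, all were well above background on 3 arrays and 12 on the WT of the G2KO comparison, where Pdgfra and Lum were not. The summed levels of the 14 were 279.6 on DKO and 280.3 on the WT of the G2KO comparison. They were 418.5 on the array labelled G2KO and 481.8 on the WT of the DKO comparison. On DKO 6 of the 14 were at least 4-fold lower than on its WT and Dcn was higher. The array labelled G2KO was at least 4-fold above its WT at 5, beside 3.71% of all genes, a direction that also turns with the labels. The WT of the DKO comparison was at least 4-fold above the other WT at 8, beside 4.63% of all genes. Summed levels of smooth muscle markers were 42.6 on DKO and 214.6 to 362.2 elsewhere, those of macrophage markers 11.7 to 22.9, and those of endothelial markers 3.09 to 4.44. The part of these cells in the ratios of Crabp1, Crabp2, Aldh1a1, Aldh1a3 and Cyp26b1 was not tested, and in bulk RNA fewer cells of a type and less RNA per cell cannot be told apart.

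**Figure D5:**
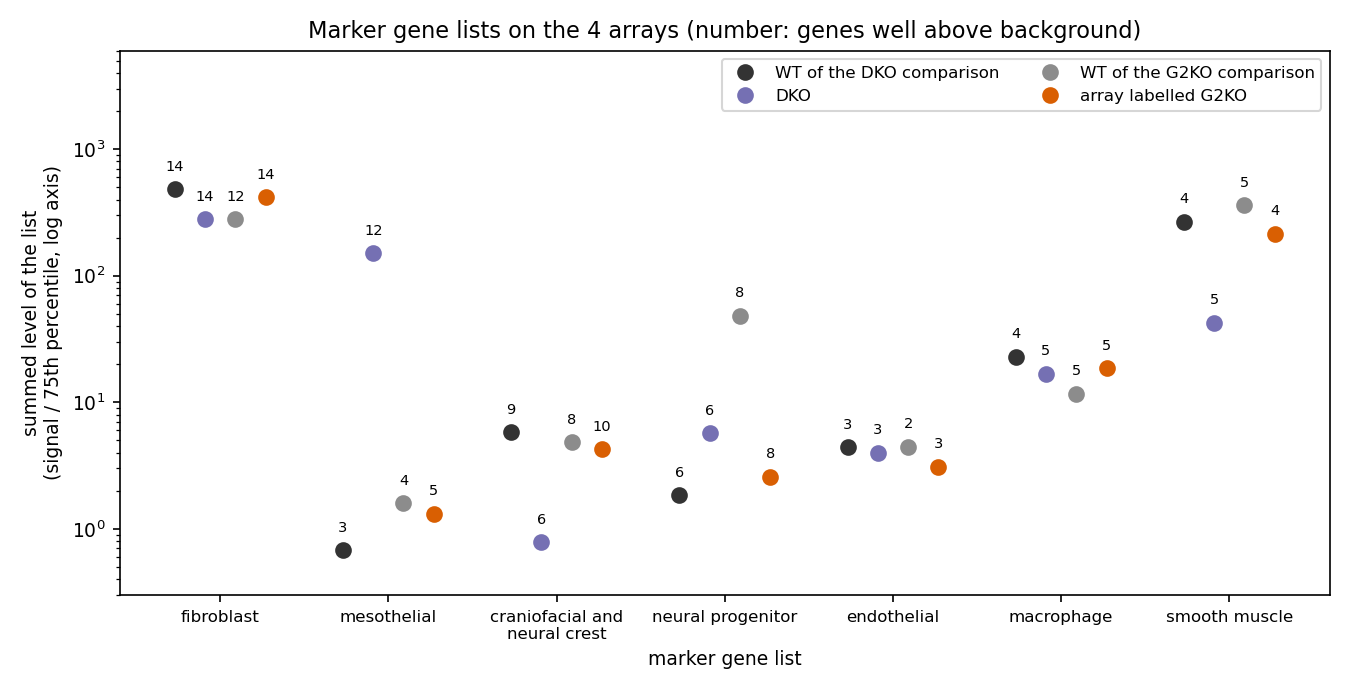
Summed level of 7 marker gene lists on the 4 arrays (signal over the 75th percentile, log axis); the number above each point counts the genes of the list well above background. The mesothelial list was highest on DKO (150.2), the craniofacial list was lowest there (0.782), and the neural progenitor list was highest on the WT of the G2KO comparison (48.4).

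The genes whose levels over the 4 arrays ran most like each of these were taken from 3804 genes that spanned at least 4-fold, by the root mean square difference of centred log2 levels. For Crabp1 they were Aqp1 (0.465), Kctd15 (0.550) and Dkk3 (0.564). For Aldh1a3 they were Auts2 (0.165), Ebf1 (0.203) and Slc2a13 (0.345). For Aldh1a1 the nearest was Foxa2 (0.524), which read 3.58 on DKO and 2.46 on the WT of the G2KO comparison and was dim elsewhere, followed by Kcnab1 (0.860) and Tnfsf9 (0.931). For Cyp26b1 the nearest was the targeted gene Ccng1 (1.04), which read 9.45 on the WT of the G2KO comparison, 1.98 on the array labelled G2KO, 1.66 on the WT of the DKO comparison and 0.0068 on DKO, followed by Fam189a1 (1.45) and Mgll (1.56). For Crabp2 they were Sytl5 (0.0657), Ddx43 (0.137) and Pcdh20 (0.149), all dim on its lower pair of arrays, where their levels are limits. For Stra6 they were Ano3 (0.124), Sgsm2 (0.129) and Icam4 (0.175). Ano3, Icam4 and Tnfsf9 were dim on the array labelled G2KO and on the WT of the DKO comparison, as was Stra6. Aqp1, Auts2, Fam189a1 and Ccng1 were dim on DKO, as were Crabp1, Aldh1a3 and Cyp26b1. The distances of all these genes rest in part on dim signals. With 4 arrays such likeness is a description only. The study itself lists Aqp1, Kctd15 and Dkk3 among the genes lower in its DKO MEFs.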

How the data were processed

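RNA of MEFs was hybridised, labelled with Cy3, to 4 Agilent arrays of 1 slide, 1 per group. The authors deposited the signal intensity of each spot from Agilent Feature Extraction (10.7.3.1 in the file headers, 10.5.1.1 in the submitters' processing notes), corrected for background within the array and not scaled between arrays. The study's methods name another software version and describe dye swaps for the G2KO arrays, whereas the labels and files are of 1 colour. The deposited table holds the same intensity as the scanner files, with a largest log2 difference of 0.

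Control spots (1377 per array) and outlier spots (107 to 140 per array) were left out, and no spot was saturated. Signals were divided by the 75th percentile of the array over its 43020 other spots (2234, 1586, 1777 and 1877 for the array labelled G2KO, its WT, DKO and its WT). Repeated spots were averaged as log2 values. Between 65.0% and 72.2% of probes were well above background, and precision is limited by there being 4 arrays. A gene took its probe with the highest mean level. A probe was compared when well above background on at least 1 of 2 arrays. On the dim array its own signal was kept or raised to the lowest signal well above background (14.7, 11.4, 13.0 and 19.2 in that order). The ratio is then called a limit, though a kept signal carries its own error. A limit on the other side of zero was given no ratio. Probes dim on both arrays had no ratio. With 1 array per group, no test was made. The calculation was run on copies of 1 array with small added noise and known changes set beyond 4-fold. That checks the arithmetic only, because differences between cultures were not simulated. Genes at least 4-fold apart were counted.

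The 9 genes, the pathway and marker lists and the rules below were chosen with earlier results of these data known. All 9 genes were named, then pathway genes at least 4-fold apart in a knockout comparison, the 3 nearest profiles of each gene spanning 4-fold, and Ccng1 and Ccng2. Gene names and mm9 positions are those of the files, and all 10 probes matched a RefSeq transcript of GRCm38.p6. Python 3.11.15 (numpy 2.4.6, pandas 2.3.3), R 4.3.3 and limma 3.58.1 (normexp and quantile alternatives) were used. Alternatives were the background correction, scaling, floor, filter, threshold, choice of probe and, added after the data were seen, the WT array and exchanged labels of the G2KO comparison. The values of 1 pathway gene, which stays in the counts, are not reported here.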

Additional observations from a re-analysis of the deposited data

Results flagged for a closer look

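Crabp1, Crabp2 and Aldh1a1 lay in opposite directions in the knockout comparisons. The log2 ratio of Crabp1 had a limit of -10.86 in DKO and was 2.93 on the array labelled G2KO. That of Crabp2 was -2.13 in DKO and 2.67 on the array labelled G2KO. That of Aldh1a1 was 6.97 in DKO and -8.48 on the array labelled G2KO. With 1 array per group the difference between the comparisons was not tested, and the directions on the array labelled G2KO rest on its label. With the labels of that comparison exchanged its log2 ratios would be -2.93, -2.67 and 8.48, on the same side as those of DKO. Cyp26b1, also at least 4-fold apart in both comparisons, went the other way. As labelled it lay on the same side, with a limit of -8.24 in DKO and -4.80 on the array labelled G2KO. With the labels exchanged the latter would be 4.80, on the side opposite to DKO.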

How the results depend on the processing

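No paired analysis was possible because each group has 1 array, and for the same reason no array could be left out. Other WT arrays and exchanged labels were added after the data were seen. Against the WT of the other comparison the log2 ratio became 0.011 for Crabp2 and -0.16 for Aldh1a1 in DKO, and -0.38 for Crabp1 on the array labelled G2KO. The genes at least 4-fold apart then numbered 3 in place of 6 in DKO and 1 in place of 4 on the array labelled G2KO, and the other pathway genes on the latter 2 in place of 5. With the labels of the G2KO comparison exchanged, the log2 ratios of its knockout became -2.93 for Crabp1, -2.67 for Crabp2, 8.48 for Aldh1a1 and 4.80 for Cyp26b1, and those between the WT arrays -0.52 for Crabp2, 1.35 for Aldh1a1 and 2.24 for Cyp26b1, with 1 of 8 genes in place of 4 of 9 at least 4-fold apart between the WT arrays. Counting only probes well above background on both arrays left 4 of the 9 genes with a ratio in DKO, 2 of them at least 4-fold apart. Crabp1, Aldh1a3, Cyp26b1, Stra6 and Cyp26a1 then had no ratio. It left 4 pathway genes at least 4-fold apart in DKO, and 3 on the array labelled G2KO. Normexp left 2 pathway genes on the array labelled G2KO. A 2-fold threshold gave 18 and 16 pathway genes; a 10-fold threshold gave 3 and 2, with 2 of the 9 genes on the array labelled G2KO and 1 between the WT arrays. Of 279 log2 ratios of the 9 genes under alternatives other than exchanged labels, 264 moved by less than the SD between the WT arrays. Of those at least 4-fold apart 3 changed sign, and of the smaller ones 5 did, all of which were within 0.38 of zero. Many of the 279 repeat the main values by construction. The filters on dim probes only keep or drop a ratio, all of the 9 genes but Rarb have 1 probe, and the deposited table equals the unscaled signals. The tally is therefore no measure of robustness. Over all genes, the counts at least 4-fold apart in DKO, on the array labelled G2KO and between the WT arrays were 1846, 1306 and 1637, with normexp 1012, 612 and 864, and with probes well above background on both arrays 1142, 779 and 1071. Without scaling the median log2 ratio of all genes on the array labelled G2KO moved from -0.17 to 0.33, and that between the WT arrays from -0.08 to 0.17. Stra6, Cyp26a1 and Aldh1a2 lay near background, where ratios are limits or close to the spot error.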
